A study of Mus musculus with 17 samples.

Results

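The loci described here are genes of small RNAs that appeared in libraries made from polyadenylated RNA of the mouse mammary gland. They were chosen from the deposited expression table as rows with 1 symbol of their own beginning with Mir and a digit, Mirlet, Snor, Scarna or Rnu, and with at least 1 FPKM in 2 or more of its 8 columns. FPKM is the number of fragments of a transcript divided by its length and by the number of mapped fragments. The rule found 110 loci among the 30843 rows of the table. They are 51 microRNA genes, 29 genes of box C/D small nucleolar RNAs (Snord), 26 of box H/ACA small nucleolar RNAs (Snora), 2 of small Cajal body RNAs (Scarna) and 2 Rnu genes.

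Whole mammary glands came from nulliparous female C57Bl/6 mice, whose age the labels do not give. WT mice were wild type. AROM mice were tet-op-CYP19A1MMTV-rtTA, in which an MMTV-driven tetracycline-responsive activator controls a transgene of aromatase, the enzyme that makes estrogens. CERM mice were tet-op-Esr1MMTV-rtTA, the same activator with a transgene of estrogen receptor alpha. BRCA mice were Brca1fl11/fl11/MMTV-Cre/p53+/-, with Cre-mediated loss of Brca1 exon 11 where MMTV-Cre acts and 1 wild-type p53 allele. MMTV drives expression mainly in mammary epithelium, while the RNA came from the whole gland with its fat, muscle and immune cells. The labels list 17 libraries, 8 single-end (2 per genotype) and 9 paired-end (1 WT, 3 AROM, 3 CERM and 2 BRCA). Per the labels' protocol both methods were applied to the libraries, but the library numbers differ between layouts. How far the layouts share animals is therefore not known, and a difference seen in both is not taken as a biological replication.

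The authors deposited 1 pooled value per genotype and read layout, so the 8 columns are 4 single-end and 4 paired-end values with no spread between libraries. No test was possible, and every difference below is a description of these columns. A locus was counted as apart between 2 columns when FPKM + 1 differed at least 2-fold, and the share of all 12188 analysed loci that did so is given as the background. An analysed locus has 1 symbol of its own and passes the same level filter. The depth of the libraries is unknown, and a value of 0 can be a failed estimate, so such a locus is said to be listed at 0.

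MicroRNAs are cut from hairpins inside longer, capped and polyadenylated transcripts by the Drosha and Dgcr8 complex and then by Dicer, and the mature strand guides Argonaute proteins to messages through its seed. Most mammalian small nucleolar RNAs are trimmed out of spliced introns of host genes, many of them genes of ribosomal proteins and translation factors. Box C/D RNAs guide methylation of ribosomal RNA and box H/ACA RNAs guide its pseudouridylation, while small Cajal body RNAs guide modification of spliceosomal RNAs. Their mature forms usually carry no poly(A) tail, and a library of polyadenylated RNA is not designed to collect them.

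The sequences below are those of loci whose values carry the results. They are loci that differed between genotypes the same way in both layouts, and box C/D RNAs with the highest values in the table. The small nucleolar RNA sequences are GENCODE transcripts on build GRCm38, printed as DNA from 5′ to 3′. Capitals mark the D box CTGA of a box C/D RNA, its C box TGATGA where these exact letters stand in the first 25 bases, or the ACA triplet in the last 8 bases of a box H/ACA RNA.
Snord34: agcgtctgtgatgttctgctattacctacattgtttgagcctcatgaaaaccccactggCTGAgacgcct
Snord37: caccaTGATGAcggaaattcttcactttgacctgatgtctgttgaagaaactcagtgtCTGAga
Snord47: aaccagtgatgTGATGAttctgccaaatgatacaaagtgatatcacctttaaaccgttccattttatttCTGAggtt
Snord69: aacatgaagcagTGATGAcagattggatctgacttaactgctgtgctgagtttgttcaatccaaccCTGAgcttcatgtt
Snora5c: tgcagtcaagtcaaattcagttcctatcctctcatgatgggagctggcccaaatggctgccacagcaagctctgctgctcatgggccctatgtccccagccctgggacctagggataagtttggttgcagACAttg
Snora52: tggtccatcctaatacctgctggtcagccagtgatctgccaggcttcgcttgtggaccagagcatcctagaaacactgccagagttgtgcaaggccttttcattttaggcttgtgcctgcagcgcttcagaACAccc

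The mature microRNA sequences are from RefSeq on build GRCm38.p6, with the seed, bases 2 to 8, in capitals. A mature sequence was found for 44 of the 51 microRNA loci, 72 sequences with 71 different seeds.
miR-680 of Mir680-1 and Mir680-2: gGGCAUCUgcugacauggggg
miR-3471 of Mir3471-1: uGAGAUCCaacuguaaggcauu
miR-1905 of Mir1905: cACCAGUCccaccacgcgguag
miR-199b-3p of Mir199b: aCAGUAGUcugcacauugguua
miR-677-5p of Mir677: uUCAGUGAugauuagcuucuga
The seed GGCAUCU, shared by Mir680-1 and Mir680-2, was the one seed that 2 loci had in common. Both loci give the same mature strand. The rest of their sequences was not compared, and how the authors' counting assigned reads between them is not known.

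On their own strand, all 29 box C/D loci held CTGA in the last 20 bases, beside 94 of 96 Snord transcripts of GENCODE. TGATGA in the first 25 bases was found in 18 of the 29, beside 68 of the 96. Of the 25 Snora loci with a GENCODE sequence, 23 held ACA in the last 8 bases, beside 36 of 38 Snora transcripts in all. These exact-letter matches are descriptions of the annotated sequences, and a box with other letters is missed. RefSeq and GENCODE give different ends for most of these genes: of 53 small nucleolar RNA loci with both lengths, 45 were longer in GENCODE, and the median difference over the 53 was 11 bases.

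The label checks that the table allows were limited. Brca1 was listed at 3.28 FPKM in the single-end BRCA column against 1.13 in WT, and at 3.29 against 0.851 in the paired-end columns. A value over the whole gene does not measure the deletion of exon 11. Trp53 was 12.3 in BRCA against 41.1 in WT in the single-end columns and 12.1 against 34.5 in the paired-end ones. Esr1 was 8.49 in CERM against 7.27 in WT single-end, and 8.41 against 6.89 paired-end. The mouse Cyp19a1 row was at most 0.0591 FPKM in any column. It checks nothing about a CYP19A1 transgene, whose reads may not map to this row.

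Markers of other cell types also moved between columns. The 5 analysed luminal epithelial markers summed to between 3638 and 7214 FPKM in the WT, CERM and BRCA columns, and to 1112 (single-end) and 689 (paired-end) in AROM. Most of that sum was the milk protein gene Csn2, at 6520 in single-end WT and 764 in AROM, while the log2 ratios of AROM to WT of the other luminal markers lay between -1.45 (Elf5) and -0.85 (Krt18) single-end and between -2.04 (Elf5) and -1.15 (Krt18) paired-end. The 4 skeletal muscle markers ranged in sum from 7048 in single-end WT to 22138 in single-end CERM. The 3 adipocyte markers ranged from 7335 in paired-end BRCA to 21082 in paired-end AROM, and the 3 B cell markers from 3.10 in paired-end AROM to 31.8 in single-end BRCA. The basal marker analysed, Acta2, ranged from 122 to 291, the 2 macrophage markers from 17.2 to 60.2 and the 2 T cell markers from 4.0 to 13.8. The cell type markers analysed were above 0 in all 8 columns. Their part in the differences below was not tested, and in whole glands fewer cells of a type and less RNA per cell cannot be told apart.

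In both WT columns a large share of values carry repeating decimals, as means of 3 values do: 46.7% of the loci in the single-end column and 43.3% in the paired-end one, against at most 0.0227% in the other 6 columns. The labels count 2 WT libraries for the first and 1 for the second. The 2 WT columns may therefore share libraries, and the 3 genotype pairs without WT are given beside those with it.

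The layouts differed most in which small RNA loci were listed at 0. In the single-end columns, loci at 0 numbered 24 of the 110 for WT, 23 for AROM, 17 for CERM and 21 for BRCA. In the paired-end columns they numbered 76, 60, 57 and 61 in the same order. Of the 12078 other analysed loci, between 0.058% and 0.257% were at 0 in any column. All 4 paired-end columns were at 0 for 41 small RNA loci, and all 4 single-end columns for 0. Among the other loci these counts were 7 and 3 of 12078.

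The classes behaved differently in this respect. Listed at 0 in every paired-end column were 22 of the 51 microRNA loci, 14 of the 29 Snord loci, both Scarna loci, 1 of the 2 Rnu loci and 2 of the 26 Snora loci. A value above 0 in all 8 columns was found for 23 small RNA loci, of which 15 were microRNA, 3 Snord and 5 Snora loci. Of the 12078 other analysed loci, 12010 (99.4%) were above 0 in all 8. In paired-end WT alone, with the other 3 paired-end columns above 0, 11 loci were listed at 0, and 8 of them were Snora. Among the other analysed loci, 13 of 12078 (0.108%) had this pattern.

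**Figure D1:**
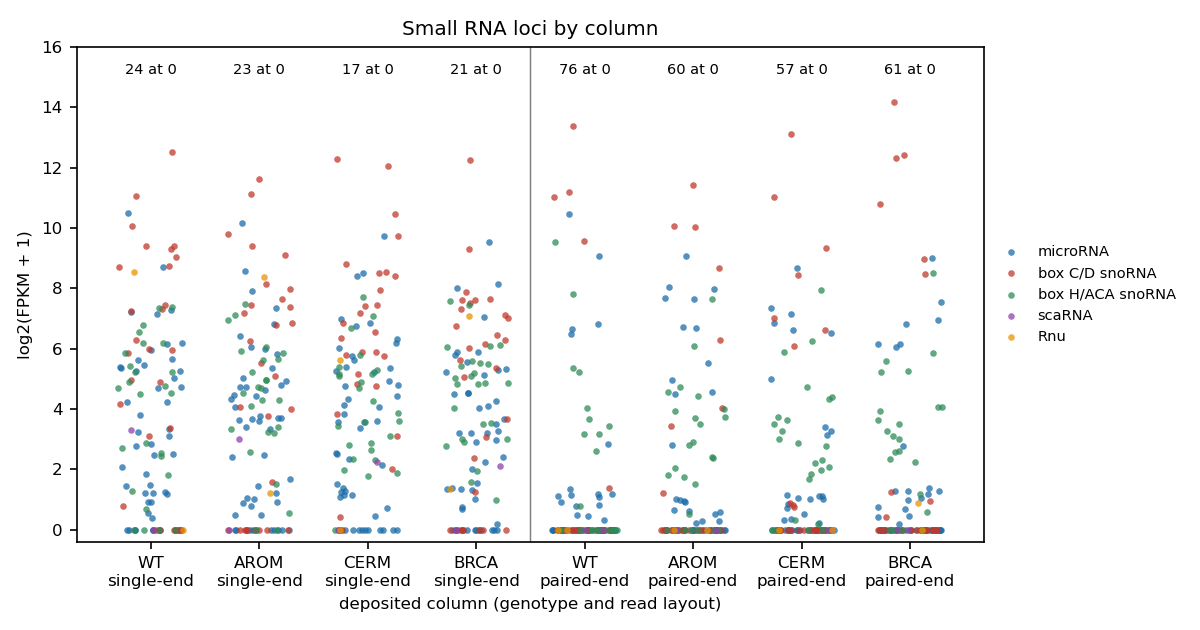
Each point is 1 of the 110 small RNA loci, with log2(FPKM + 1) on the vertical axis, the 8 deposited columns on the horizontal axis and the class in colour; points are spread sideways for display. The number at the top is the count listed at 0, which was between 17 and 24 in the single-end columns and between 57 and 76 in the paired-end ones.

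The highest values belonged to box C/D RNAs. Snord69 was listed at 677 FPKM in WT and at 546, 842 and 195 in AROM, CERM and BRCA in the single-end columns, and at 10567, 1078, 8964 and 18587 in the paired-end columns in the same order. Snord37, which lies in an intron of the elongation factor gene Eef2, was listed at 5803 in WT and at 2214, 4989 and 4870.1 in AROM, CERM and BRCA in the single-end columns and at 0 in all 4 paired-end ones. The lowest single-end value of Snord37 is thus above the single-end values of Snord69, and the layouts place these 2 loci in opposite order.

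Snord47, carried by the growth arrest transcript Gas5, was above 0 in all 8 columns, at 1076, 887, 373 and 86.5 FPKM in single-end WT, AROM, CERM and BRCA and at 2319, 2726, 2075 and 5468 in the paired-end columns. BRCA was its lowest single-end column and its highest paired-end column. Snord52 was above 0 in 3 columns only, at 247 in single-end CERM, 1040.3 in paired-end AROM and 5124 in paired-end BRCA. Snord42b, in the ribosomal protein gene Rpl23a, was listed at 2149 in WT and at 3159, 4259 and 0 in AROM, CERM and BRCA in the single-end columns, and at 0 in every paired-end column.

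The microRNA locus with the highest single-end value was Mir703, at 1453 FPKM in WT and at 1141, 860.1 and 733 in AROM, CERM and BRCA, and at 98.7, 105, 141 and 70.1 in the paired-end columns. BRCA was its lowest column in both layouts. Mir677, in an intron of the ATP synthase gene Atp5b, was listed at 1419 in paired-end WT and at 0 in the other 3 paired-end columns, while its single-end values were 140.0 in WT and 25.3, 107 and 57.8 in AROM, CERM and BRCA. Its hairpin was the 1 of 39 member hairpins in which TGATGA in the first 25 bases was followed by CTGA, which 2 of 1005 RefSeq hairpins hold.

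Compared within a genotype, paired-end against single-end, 71 of the 110 loci were at least 2-fold apart in WT, where the background was 1.75%. The count was 77 in AROM (background 2.03%), 76 in CERM (background 2.58%) and 73 in BRCA (background 1.45%). Most were lower in the paired-end column. In WT 60 were lower (background 1.14%) and 11 higher (background 0.607%), and in AROM 60 were lower (background 1.13%) and 17 higher (background 0.903%). In CERM 61 were lower (background 0.944%) and 15 higher (background 1.63%), and in BRCA 58 were lower (background 0.804%) and 15 higher (background 0.648%). With loci at 0 in either column left out, 15 of 31 loci were apart in WT (background of loci above 0, 1.12%), 26 of 43 in AROM (1.52%), 30 of 50 in CERM (2.16%) and 29 of 47 in BRCA (0.992%), in mixed directions. Of these, 8 were higher (background 0.547%) and 7 lower (background 0.572%) in WT, and 10 higher (background 0.828%) and 16 lower (background 0.696%) in AROM. In CERM 12 were higher (background 1.6%) and 18 lower (background 0.561%), and in BRCA 13 higher (background 0.587%) and 16 lower (background 0.405%).

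After Snord37, the loci with the largest mean layout difference were Snord19, Snord42b, Snord4a, Mir1982 and Rnu73b, all at 0 in the 4 paired-end columns. Snord19, which shares the nucleolar protein gene Gnl3 with Snord69, was listed at 676 FPKM in WT and at 677, 1407 and 638 in AROM, CERM and BRCA single-end. Snord4a, in Rpl23a like Snord42b, was listed at 624, 164, 365 and 159.6 in the same order. Mir1982, overlapping an exon of the antizyme gene Oaz1, was at 147, 377, 71.7 and 255. Rnu73b, a box C/D RNA by its GENCODE type and boxes and located in an intron of Rps3a, was at 376, 327, 48.5 and 136.

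The other Rnu locus and the Scarna loci were low. Rnu12, the U12 RNA of the minor spliceosome, was listed at 1.33 FPKM in single-end AROM, 1.52 in single-end BRCA, 0.828 in paired-end BRCA and 0 in the other 5 columns. Scarna8 was at 8.87 in single-end WT and 6.99 in single-end AROM and at 0 elsewhere. Scarna3a was above 0 in the 2 single-end columns where Scarna8 was not, at 3.77 in CERM and 3.27 in BRCA.

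Few loci were at a like value in all 8 columns. On FPKM itself, 2 of the 110 loci, Mir3061 and Mir30c-2, lay within 2-fold over the 8 columns, against 7275 (60.2%) of the 12078 other loci. On the FPKM + 1 scale 7 did so, all microRNA loci, against 8730 (72.3%) of the others. Their 56 values lay between 0.426 and 2.24 FPKM, where adding 1 leaves little room to differ, and Mir103-2, Mir16-1, Mir205, Mir221 and Mir429 spanned more than 2-fold in FPKM. Mir205 and Mir429 are known as epithelial microRNAs. Mir205 ranged from 0.550 in paired-end AROM to 1.61 in single-end CERM, and Mir429 from 0.426 in paired-end AROM to 1.47 in single-end BRCA.

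Between AROM and WT, 43 of the 110 small RNA loci were at least 2-fold apart in the single-end columns, where the background was 3.99%, with 19 higher (background 2.32%) and 24 lower (background 1.67%) in AROM. In the paired-end columns 34 were apart (background 4.77%), 23 higher (background 2%) and 11 lower (background 2.77%). The median absolute log2 ratio single-end was 0.78 over the 110 loci and 0.18 over all loci analysed. In the paired-end columns 55 loci were at 0 in both columns, and the median absolute ratio was 0.02 against 0.26.

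The CERM to WT comparison gave 60 loci apart in the single-end columns (background 4.65%), 29 higher (background 3.63%) and 31 lower (background 1.02%). The paired-end columns gave 33 (background 4.63%), 23 higher (background 3.77%) and 10 lower (background 0.862%). Median absolute log2 ratios were 1.12 single-end against 0.19 over all loci, and 0.09 paired-end against 0.20.

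For BRCA against WT, 57 loci were apart single-end (background 5.52%), 28 higher (background 3.62%) and 29 lower (background 1.9%). Paired-end, 24 were apart (background 6.31%), 17 higher (background 5.03%) and 7 lower (background 1.28%). The single-end median absolute log2 ratio was 1.03 against 0.25 over all loci.

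The pairs without WT gave counts of the same size. CERM and AROM differed at 54 loci single-end (background 2.64%) and 34 paired-end (background 6.38%). Of these, 30 were higher (background 1.84%) and 24 lower (background 0.804%) in CERM single-end, and 16 higher (background 4.14%) and 18 lower (background 2.25%) paired-end. CERM and BRCA differed at 54 loci single-end (background 6.16%) and 31 paired-end (background 5.36%). In CERM 29 were higher (background 3.09%) and 25 lower (background 3.08%) single-end, and 17 higher (background 2.44%) and 14 lower (background 2.92%) paired-end. AROM and BRCA differed at 59 loci single-end (background 8.39%) and 33 paired-end (background 14.9%). In AROM 26 were higher (background 3.04%) and 33 lower (background 5.36%) single-end, and 17 higher (background 4.34%) and 16 lower (background 10.6%) paired-end. Comparisons that share a column, such as all 3 with WT, are not independent of each other.

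Values of 0 made up much of these counts. With loci at 0 in either column left out, 21 of 75 loci were apart for AROM against WT single-end (background of loci above 0, 3.78%) and 8 of 29 paired-end (background 4.53%). The counts were 29 of 74 (background 4.32%) and 3 of 27 (background 4.31%) for CERM, and 31 of 74 (background 5.26%) and 4 of 30 (background 6.1%) for BRCA. The paired-end counts for CERM and BRCA are too small to set apart from their backgrounds. The paired-end loci left for CERM were Snora68, Snora5c and Snora34, all lower than WT, and those for BRCA were Snora68, Snora5c and Snora28, lower, and Snord47, higher. Snora34 and Snora28 are named after their values were seen.

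The calls were spread over the classes in different ways. In the paired-end comparisons of AROM, CERM and BRCA with WT, 15, 16 and 14 of the 26 Snora loci were apart, 7, 7 and 6 of the 29 Snord loci, and 12, 10 and 4 of the 51 microRNA loci. In the single-end comparisons the counts were 7, 12 and 11 for Snora, 12, 18 and 18 for Snord, and 23, 27 and 24 for microRNA loci. The backgrounds are those given above for each comparison. A value of 0 entered 12, 13 and 11 of the paired-end Snora calls in the same order. The 3 comparisons share the paired-end WT column, which was at 0 for 15 of the 26 Snora loci. With loci at 0 in either column left out, 3 of 9 Snora loci were apart paired-end in each comparison.

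Part of these differences were found in both layouts. Loci at least 2-fold apart the same way in both layouts numbered 7 for AROM against WT (background 1.67%), 10 for CERM against WT (background 1.53%) and 10 for BRCA against WT (background 4.04%). They numbered 5 for CERM against AROM (background 1.56%), 5 for CERM against BRCA (background 3.2%) and 6 for AROM against BRCA (background 6.18%). As a share of the 110 loci, the count for AROM against BRCA lies below its background. That for CERM against BRCA is too small to set apart from its background. Loci at least 2-fold apart in opposite directions numbered 6 (background 0.0656%), 5 (background 0.0492%), 2 (background 0.0246%), 9 (background 0.082%), 9 (background 0.0903%) and 12 (background 0.123%) in the same order of pairs.

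Against WT, the repeated loci were 3 higher (background 0.369%) and 4 lower (background 1.3%) in AROM, 6 higher (background 1.1%) and 4 lower (background 0.427%) in CERM, and 6 higher (background 3.04%) and 4 lower (background 1%) in BRCA. CERM had 5 loci higher than AROM (background 1.36%) and 0 lower (background 0.197%), and 3 higher (background 1.29%) and 2 lower (background 1.91%) than BRCA. AROM had 1 higher (background 1.38%) and 5 lower (background 4.8%) than BRCA. As shares of the 110 loci, both AROM counts against BRCA lie below their backgrounds. So do the counts lower in CERM than in AROM and than in BRCA.

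Summed over the 6 pairs, the small RNA loci gave 43 cases in the same direction, from 21 loci, and 43 in opposite directions, from 24 loci. The 21 loci include Snord1b and Mir199b, which passed the level filter through the 2 CERM columns alone. The 24 loci include Mir1949, Snord17 and Mir5098, which each passed it through 1 single-end and 1 paired-end column of different genotypes. For these 3 loci a call in both layouts could only be opposite. Those 43 in the same direction stand beside 327 cases apart single-end and 189 paired-end. The other 12078 loci gave 2172 cases in the same direction and 10 in opposite directions, beside 3495 apart single-end and 4974 paired-end. With every compared column above 0, the small RNA loci gave 9 cases the same way and 12 opposite, against 2109 and 6 for the other loci. Taken over all 562 small RNA loci with no level filter, the sums were again 43 and 43.

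**Figure D2:**
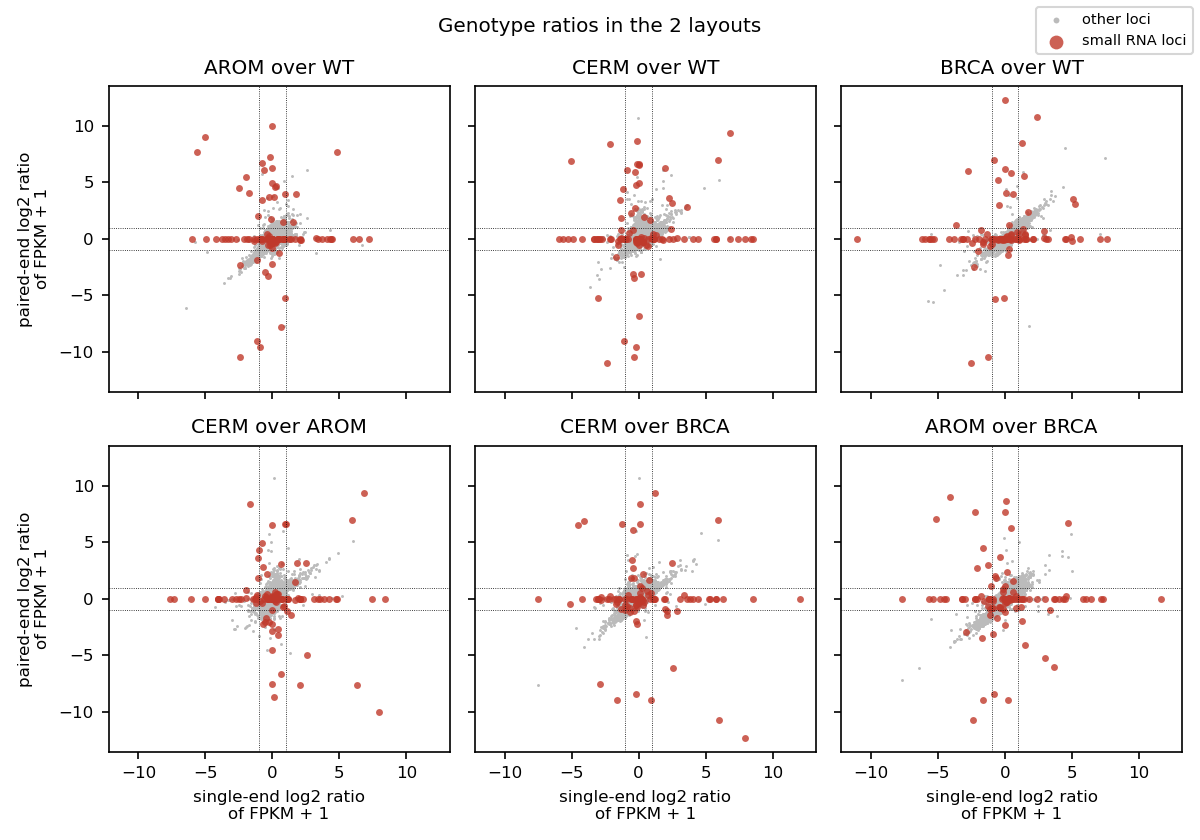
Each panel plots 1 genotype pair, with the single-end log2 ratio of FPKM + 1 on the horizontal axis and the paired-end one on the vertical axis; red points are the 110 small RNA loci, grey points the 12078 other analysed loci, and dotted lines mark 2-fold. Other loci past 2-fold in both layouts lie along the rising diagonal, while small RNA loci lie along both axes, where 1 layout shows no difference, and in all 4 corners, with 43 cases the same way and 43 opposite over the 6 panels.

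The 6 loci that differed the same way in both layouts with no value of 0 in the comparison were Snora68, Snora52, Snora5c, Snord34, Mir680-2 and Mir3471-1. Snora68, Mir680-2, Snora21, Mir3096b and Snord32a fell outside the 16 loci that the naming rule allows for repeated differences, and are named after their values were seen.

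Snora68 was lower than WT in all 3 genotypes in both layouts. It was listed at 109.6 FPKM in WT and at 49.9, 33.4 and 27.1 in AROM, CERM and BRCA single-end, and at 741, 199, 244 and 359.9 paired-end. WT was the highest column of each layout. The log2 ratios to WT were -1.12, -1.69 and -1.98 single-end and -1.89, -1.60 and -1.04 paired-end, so the order among the other genotypes was not the same.

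Snord34, in an intron of Rpl13a, was listed at 418 FPKM in WT and at 75.6, 81.5 and 70.9 in AROM, CERM and BRCA single-end, and at 2068 in WT, 406 in AROM and 0 in both CERM and BRCA paired-end. WT was again the highest column in both layouts. For AROM against WT, the pair with no 0, the log2 ratios were -2.45 and -2.35. Snord32a and Snord35a lie in the same host and did not share this order: Snord32a was listed at 78.0 in WT and 194 in BRCA single-end, and at 0 in WT and 353 in BRCA paired-end, while Snord35a was at 28.4 in WT and 63.9 in BRCA single-end and above 0 in CERM alone (97.4) paired-end. Rpl13a was listed at 1065, 791, 729.7 and 699.9 single-end and 706, 706, 622 and 514 paired-end.

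Snora5c, which overlaps an exon of Tbrg4, was listed at 36.2 FPKM in WT and 6.45 in BRCA single-end, and at 224 and 37.7 paired-end, for log2 ratios of -2.32 and -2.54. AROM did not follow, with 56.9 single-end, the highest of its layout, and 0 paired-end. Tbrg4 lay between 12.4 and 19.7 in all 8 columns.

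Snora52, which overlaps an exon of the ribosomal stalk protein gene Rplp2, was listed at 24.6 FPKM in WT and at 30.2, 101 and 66.7 in AROM, CERM and BRCA single-end, and at 0, 25.4, 75.3 and 46.9 paired-end. The order CERM, BRCA, AROM, WT was the same in both layouts. Its log2 ratio of CERM to AROM was 1.71 single-end and 1.53 paired-end. Rplp2 was lower in CERM than in AROM, at 507 against 679.5 single-end and 595 against 1390.3 paired-end, a paired-end log2 ratio of -1.22.

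Mir680-2 was listed at 4.71 FPKM in WT and at 15.6, 29.3 and 15.2 in AROM, CERM and BRCA single-end, and at 89.1, 253, 161 and 112 paired-end. WT was the lowest column in both layouts, and the log2 ratios of AROM to WT were 1.54 and 1.5. Mir680-1, with the same mature strand, was above 0 in single-end CERM (4.88), paired-end AROM (29.8) and paired-end BRCA (70.3) and at 0 in the other 5 columns.

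Mir3471-1 was listed at 39.8 FPKM in WT and at 9.49, 37.0 and 21.7 in AROM, CERM and BRCA single-end, and at 0, 44.9, 404 and 123 paired-end. AROM was below CERM in both layouts, with log2 ratios of CERM to AROM of 1.86 and 3.14, and below BRCA, with log2 ratios of AROM to BRCA of -1.12 and -1.43. Against WT it went in opposite directions, lower in single-end AROM and above the 0 of WT in paired-end AROM.

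**Figure D3:**
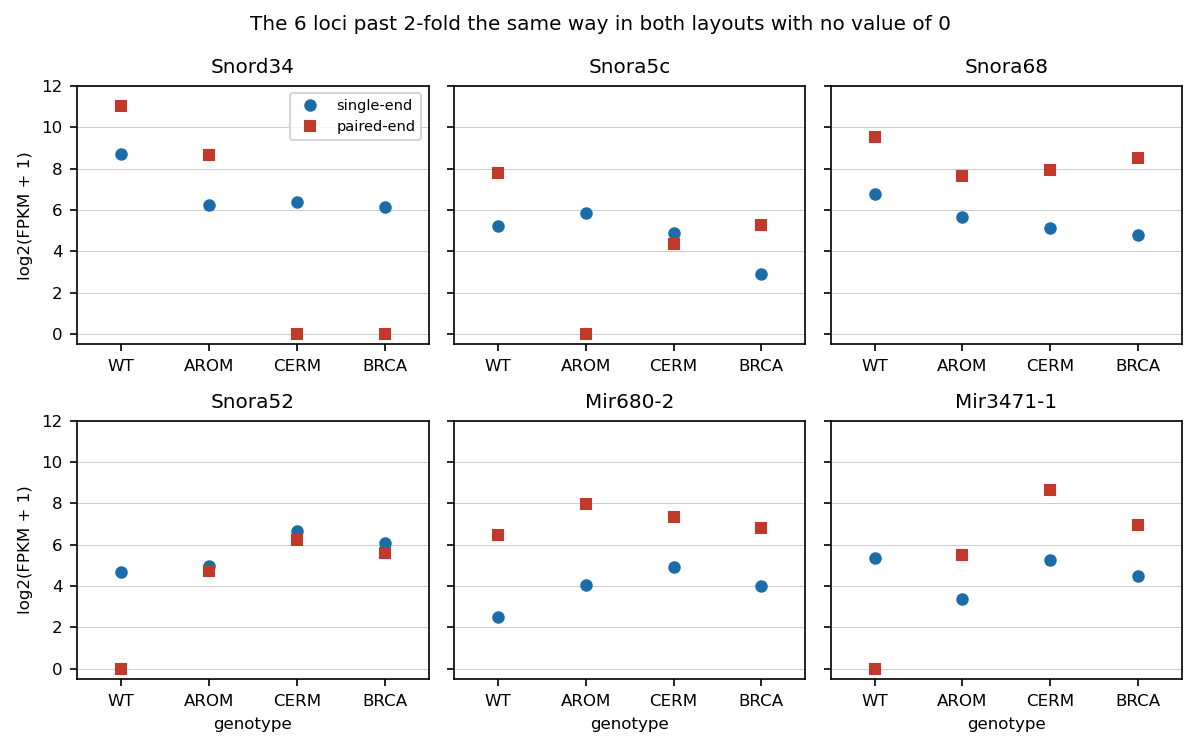
Each panel shows 1 locus, with log2(FPKM + 1) on the vertical axis and the 4 genotypes on the horizontal axis; circles are the single-end columns and squares the paired-end ones, 1 pooled value each. WT is the highest column of both layouts for Snora68 and Snord34 and the lowest for Snora52 and Mir680-2.

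Where a 0 entered the comparison, the genotypes above 0 were the same in both layouts for some loci and not for others. Snord1b was above 0 only in CERM, at 58.7 FPKM single-end and 129.8 paired-end, and so was Mir199b, at 4.69 and 7.83. Both loci passed the level filter through these 2 CERM columns alone, so their repeat in both layouts was set by the choice of loci. Snord2, in Eif4a2, was at 113 in CERM and 48.7 in BRCA single-end and at 650.1 in CERM alone paired-end. Snord49a was at 339 in CERM and 4.24 in BRCA single-end and at 1757 in BRCA alone paired-end, so its highest genotype differed between layouts.

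Mir1905 was listed at 0 in WT in both layouts and at 26.9 in AROM single-end and 204 paired-end, but its CERM and BRCA values of 113 and 132 single-end became 0 paired-end. Mir1981 was at 0 in BRCA in both layouts, and at 25.2 and 102 in AROM. Mir3096 was at 6.45 FPKM in BRCA and 0 elsewhere single-end, and at 112 in WT and at 22.7, 0 and 186 in AROM, CERM and BRCA paired-end. Mir3096b was above 0 in all single-end columns (11.2 to 36.2) and in WT (542) and BRCA (517) paired-end, with BRCA above AROM and CERM in both layouts.

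Several Snora loci were higher than in WT in both layouts in some genotypes. Snora44, Snora21 and Snora15 were all at 0 in paired-end WT, as were 15 of the 26 Snora loci, so paired-end they could not be lower than WT. No Snora locus was at least 2-fold higher than WT in both layouts with every compared column above 0. Snora44, carried by the host transcript Snhg12, was at 0 in WT in both layouts, and at 3.90 in CERM and 32.8 in BRCA single-end and 11.4 and 10.4 paired-end. Its AROM values were 9.54 single-end and 0 paired-end. Snora21 was at 2.50 in WT and 10.4 in BRCA single-end, the lowest and highest of its layout, and at 0 and 4.06 paired-end, again the lowest and highest. Snora15, in Cct6a, was at 4.76 in WT and 18.6 in AROM single-end and at 0 and 14.4 paired-end. Its CERM and BRCA values were 4.05 and 7.04 single-end, below and above WT, and 25.6 and 57.5 paired-end. Snora31, in Tpt1, went the other way in CERM, at 71.1 in WT and 7.61 in CERM single-end and at 36.8 in WT and 0 in the other 3 paired-end columns.

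Loci whose layouts gave opposite directions included 8 with no value of 0 in the columns compared. Besides Snord47 and Snord69, Mir1949 was lower in AROM than in BRCA single-end, at 0.705 against 57.7 FPKM, and higher paired-end, at 263 against 0.983. Mir1949 passed the level filter through the columns with 57.7 and 263 alone, so its opposite directions were set by the choice of loci. Snord15b was at 2.0 in AROM and 11.8 in BRCA single-end and at 15.4 and 1.40 paired-end. Mir682 was at 64.2 in CERM and 8.15 in BRCA single-end and at 30.5 and 65.0 paired-end. The others were Mir7-1, Snora15 and Snora74a, and of these 8 loci Mir1949, Snord15b, Mir682, Mir7-1 and Snora74a are named after their values were seen.

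The annotated length of 108 of the loci was found in RefSeq (106) or GENCODE (2), and ranged from 53 to 221 nucleotides. These are lengths of the annotated genes on a later build than the authors' mm9, and the lengths of the transcripts the authors quantified are not in the table. In the single-end columns the shorter loci had the higher values: Spearman's rho of length with the highest single-end FPKM was -0.57 over the 108 loci and -0.79 over the 55 small nucleolar RNA loci. With the highest paired-end FPKM it was 0.04 and -0.06. These are descriptions across loci that share libraries, and FPKM itself divides by length.

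Among the 64 loci under 100 nucleotides, 32 were at 0 in all paired-end columns, against 9 of 38 from 100 to under 150 nucleotides and 0 of 6 from 150 to under 300. Over the 3 comparisons with WT, the shares at least 2-fold apart in these length classes were 51.0%, 46.5% and 27.8% single-end, and 17.2%, 44.7% and 16.7% paired-end. The 10928 other loci of 300 nucleotides or more gave 4.43% and 5.12%. Loci under 100 nucleotides gave 21 cases the same way and 20 opposite over the 6 pairs, those from 100 to under 150 gave 18 and 16, and the longer ones gave 0 and 3.

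Length and class cannot be told apart well here. The 29 Snord loci had a median length of 74 nucleotides and the 49 microRNA loci 85, while the 26 Snora loci had a median of 119 and a minimum of 98. Of 10931 other analysed loci with a transcript length, 3 had a longest transcript under 300 nucleotides, Gm1943 and the RNA genes Rmrp and Rprl3, so differences that go with small RNA genes and those that go with short length could not be separated with other genes.

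**Figure D4:**
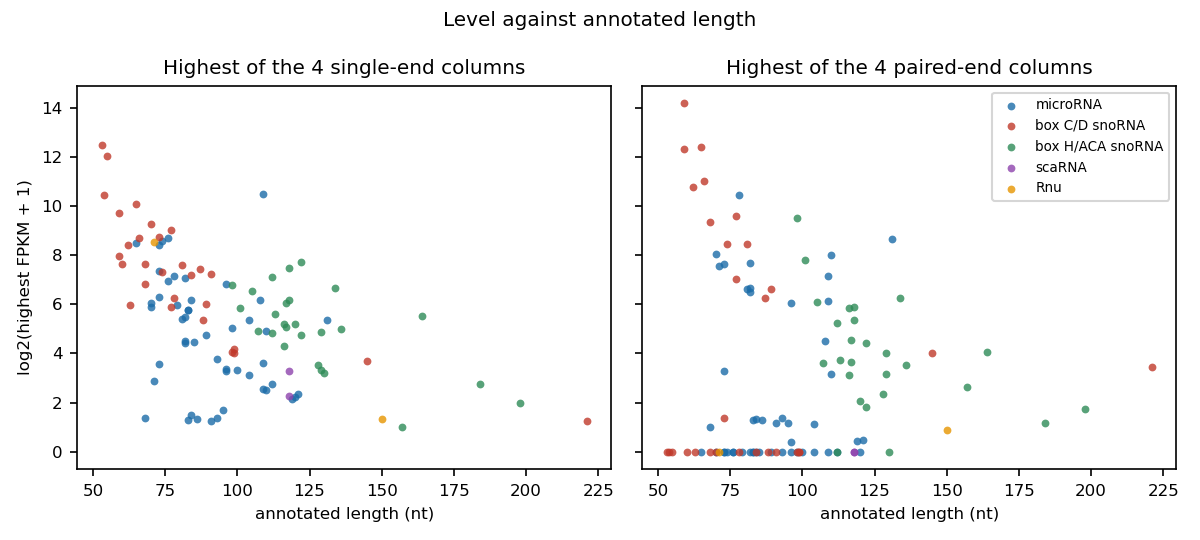
Each point is 1 of the 108 small RNA loci with an annotated length, in nucleotides on the horizontal axis, against log2 of its highest FPKM + 1 over the 4 single-end columns (left) or the 4 paired-end columns (right), coloured by class. The single-end values fall with length, while in the paired-end panel many loci under 100 nucleotides sit at 0 (32 of 64) beside the highest values of all.

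Most loci lie inside another gene. Of the 108 with a position, 93 had a host gene on the same strand in GENCODE, 46 of them within introns and 47 overlapping an exon of at least 1 annotated transcript, and 15 had none. For 73 loci the host, 1 of 65 genes, was itself among the loci analysed. Where such a transcript form is present, its reads over the exon may not be told from those of the small RNA.

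The small RNA loci were apart more often than their hosts. In each comparison with WT and each layout, at most 1 of the 65 hosts was 2-fold apart, and between 17 and 39 of the 73 small RNA loci were. The background over all loci was 3.99% to 6.31% in these comparisons, and counts of 0 or 1 host are too small to set apart from it. For AROM against WT single-end, 28 of the 73 loci and 1 host were apart, and the median absolute log2 ratios were 0.78 for the loci and 0.12 for the hosts. For CERM they were 1.09 and 0.22, and for BRCA 1.03 and 0.33.

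The one host apart in the single-end comparisons with WT was the nucleolin gene Ncl, which was listed at 0 in single-end WT and at 102, 104 and 139 in AROM, CERM and BRCA. It was at 107 in paired-end WT. Snora75, which overlaps an exon of Ncl, was at 0 in single-end WT as well and at 18.6, 11.2 and 36.0 in the other single-end columns. It was the locus that moved with its host there, and paired-end it was at 0 in WT and AROM, 6.28 in CERM and 7.69 in BRCA.

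The one host apart in the paired-end comparisons with WT was Tpt1, which encodes the translationally controlled tumor protein. It was at 1107 in WT and at 435, 385 and 867 in AROM, CERM and BRCA. Its intronic Snora31 was above 0 only in WT there. Single-end, Tpt1 was listed at 11.8, 13.0, 10.3 and 6.12, all far below the paired-end values.

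Loci of 1 host could differ in pattern. Gnl3 lay between 15.0 and 23.8 FPKM in all 8 columns, while its Snord19 was at 638 or more in every single-end column and 0 in every paired-end one, and Snord69 was above 0 in all 8. In Mcm7, which lay between 11.4 and 20.4, Mir106b was above 0 in single-end AROM (19.2) and CERM (20.7), and Mir25 in single-end WT (71.9), AROM (55.9) and CERM (36.4). In Eif4a2, Snora81 was above 0 in all 8 columns, from 4.16 to 44.9, and Snord2 in 3.

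**Figure D5:**
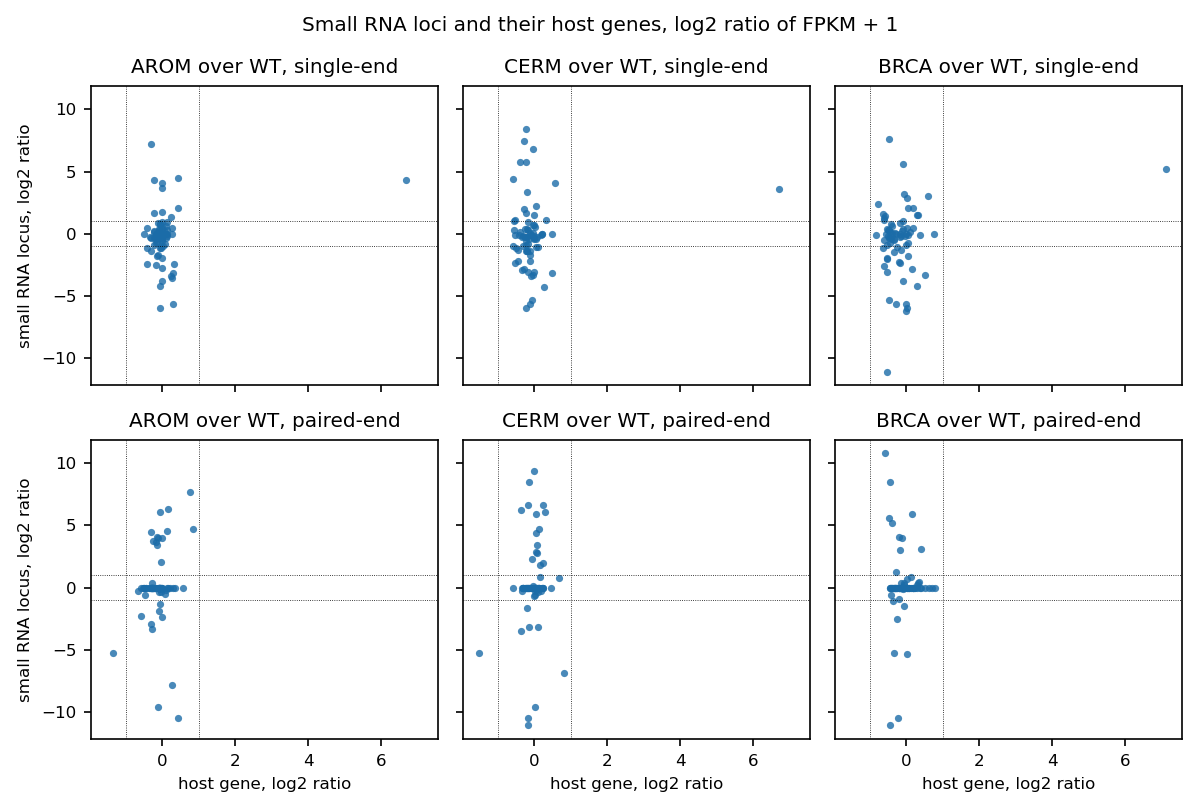
Each point is 1 of 73 small RNA loci with an analysed host gene, with the host's log2 ratio of FPKM + 1 to WT on the horizontal axis and the locus' own on the vertical axis; rows are layouts, columns are genotypes, and dotted lines mark 2-fold. The points form a vertical band, since hosts stayed within 2-fold of WT except Ncl (single-end) and Tpt1 (paired-end AROM and CERM) while the loci spread over many 2-fold steps.

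Genes that make or carry small RNAs were looked at from lists. Of 10 microRNA processing genes, 11 genes of small nucleolar RNA-protein particles and 11 of Cajal bodies and small nuclear RNAs, 0 were at least 2-fold apart the same way in both layouts in any of the 6 genotype pairs. The background for that call was 1.53% to 6.18%, so that a count of 0 in lists this short is near it. Dgcr8, the RNA-binding partner of Drosha, was at 28.5 FPKM in WT and at 45.9, 5.82 and 7.62 in AROM, CERM and BRCA single-end, but at 4.86, 4.01, 5.97 and 6.72 paired-end. Drosha was between 9.54 and 13.3 in all 8 columns, and Dicer1 between 4.02 and 6.78. Of the particle genes, the methylation scaffold gene Nop56 lay between 19.3 and 29.5, and the pseudouridine synthase gene Dkc1 between 10.5 and 14.04.

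Most rows with a small RNA symbol did not enter. The table has 652 rows that name one, of which 41 carry several symbols and 49 share a symbol with another row. Of the 562 with 1 symbol of their own, 388 were at 0 in all 8 columns and 57 reached 1 FPKM in 1 column only. The 110 loci are 51 of 472 microRNA, 29 of 52 Snord, 26 of 28 Snora, 2 of 7 Scarna and 2 of 3 Rnu rows, and 29 of the 110 passed with exactly 2 columns. Since a locus that is high in 2 columns only had to differ between columns, the counts above describe the loci chosen and support nothing beyond them.

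Around the level threshold, the loci just inside were Rnu12, Mir3061 and Mir205, whose second-highest values were 1.33, 1.33 and 1.28 FPKM. Just outside were Mir145, Mir365-2 and Mir3968, with 0.880, 0.868 and 0.866. Mir3968 had 1 value of 28.2, in single-end AROM, and 0.0226 in paired-end AROM.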

How the data were processed

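TruSeq libraries of polyadenylated RNA were read on an Illumina HiSeq, per the labels' protocols. The submitters' processing notes name FastQC, Trim Galore, TopHat and Cufflinks with build mm9; their versions, the depth and any use of strand: not given in the sources used here. The authors deposited FPKM values, 1 pooled column per genotype and layout, so the limma fit planned for a column per library could not be run. Values were used as deposited, with python 3.11.15, pandas 2.3.3 and numpy 2.4.6. The log2 ratio of FPKM + 1 was taken, which understates ratios of low values, and 2-fold was called. The step that makes these calls was tested on simulated data with known changes, which is no test of the genotypes. Loci named are up to 16 repeating in both layouts, the 8 highest, the 6 with the largest layout difference, all Rnu and Scarna loci, the threshold neighbours, their hosts and the label-check genes; every other locus or gene was named after its values were seen. The members and lists were chosen with earlier results of these data known. Hosts, lengths and names came from GENCODE M21 and RefSeq GRCm38.p6, with no coordinates printed. Alternatives changed the pseudocount, the filter, the scaling and the treatment of 0. 1 host gene is not reported here.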

Additional observations from a re-analysis of the deposited data

How the results depend on the processing

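The 16 counts of loci at least 2-fold apart were recomputed under 5 alternatives, 80 values in all, and 63 stayed within 1.5 times the count reported. A pseudocount of 0.1, a minimum of 5 FPKM and median-ratio scaling of the columns (factors from 0.855 in paired-end AROM to 1.07 in single-end BRCA) moved none of the 16 by more. Without a filter on low values, over 562 loci, the count for AROM against WT single-end was 70. The counts over both layouts could not change in this setting, since a locus apart in both layouts always passes the filter. Leaving out loci listed at 0 lowered all 16 counts, by construction of fewer loci. AROM, CERM and BRCA against WT gave 21, 29 and 31 single-end, 8, 3 and 4 paired-end, and 3, 1 and 2 the same way in both layouts. CERM against AROM, CERM against BRCA and AROM against BRCA gave 2, 0 and 1 in both layouts, and paired-end against single-end gave 15 in WT and 26, 30 and 29 in AROM, CERM and BRCA. The 6 loci that repeated with no 0 in the columns compared gave 18 log2 ratios. These ratios kept their direction and stayed past 2-fold with either pseudocount and under scaling, the smallest at 1.04. Over 53 small nucleolar RNA loci, rho of length with the highest FPKM was -0.78 single-end and -0.05 paired-end with RefSeq lengths, and -0.72 and -0.01 with GENCODE lengths, a choice made after seeing the data. No paired analysis was possible because the columns are pooled and carry no replicate number. For the same reason no library could be left out in turn.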

Other observations

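The values here were chosen after they were seen. In paired-end AROM alone, 3 genes of short noncoding RNAs outside the naming rule were high. Rmrp, the RNA of RNase MRP, was listed at 64.6 FPKM there and at most 2.64 in the other 7 columns. Rpph1, the RNA of RNase P, was at 28.3 against at most 0.764, and Rprl3, an RNase P RNA-like gene, at 27.7 against at most 1.05. Snord17, in an intron of Snx5, was at 9.93 in the same column against at most 1.36. Mir1949 (263), Snord15b (15.4) and Snora74a (2.34) also had their highest paired-end value there.

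The rule leaves out rows with several symbols, with or without a host symbol beside the small RNA. These also differed between layouts. Of 24 such rows that pass the level filter, 13 (54.2%) spanned at least 2-fold over the 4 single-end columns, against 13.6% of the loci analysed other than the 110, and 1 (4.17%) over the 4 paired-end ones, against 20.5%. The row of Snhg12, Snora61 and Snord99 was at 59.9 FPKM in WT and at 274, 127 and 331 in AROM, CERM and BRCA single-end, and at 24.3, 15.9, 18.04 and 18.98 paired-end. The row of A330023F24Rik, Mir29b-2 and Mir29c was at 6.63, 90.7, 37.8 and 23.3 single-end, and between 0.467 and 1.22 paired-end. The row of Gas5 and Mir5117 stayed between 69.5 and 156.6 in all 8 columns. Some symbols stand on 2 rows, and the first row of Mir1932 was at 11.9 in BRCA single-end and 11.7 paired-end, with the other 6 columns between 2.63 and 6.01.

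FPKM summed over all rows was between 894860 and 1048763 in the single-end columns, but 4255000 in paired-end WT, 4315982 in CERM, 6243130 in BRCA and 119835349 in AROM. Rows with no gene name held between 88.2% and 99.5% of the paired-end sums, the highest at 35800000 FPKM in AROM, while named rows summed to between 457338 and 573450 in all 8 columns.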
